A study of Homo sapiens with 9 samples.

Results

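CEMIP, HS3ST3A1, TENT5A, CD24, SCGN, PCYT1B, OSBPL10, SLC26A3 and NFE2 were among the genes with the largest falls in messenger RNA signal when HepG2 cells were given a thyroid hormone receptor ligand, either the natural hormone triiodothyronine (T3) or the synthetic compound GC-1. They are 9 of the 11963 genes that the arrays named, and 18 of the 22215 probe sets, a probe set being the group of short array probes that report on one transcript. Each gene was taken because it stood among the 10 largest falls with T3, with GC-1 or with both, so its difference from vehicle is given here as a description, with no test. Only genes with an adjusted p under 0.05 in limma and all 3 ligand arrays below all 3 vehicle arrays in their brightest probe set were ranked. They numbered 205 with T3 and 139 with GC-1. For the ligand that chose a gene, the call and the lack of overlap with vehicle in that probe set were thus set by the choice. CEMIP, HS3ST3A1, TENT5A, CD24, SCGN and PCYT1B stood in both lists of 10, OSBPL10 in the T3 list alone, and SLC26A3 and NFE2 in the GC-1 list alone. All 1-symbol probe sets of each gene were kept, whatever they showed.

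Thyroid hormone acts through nuclear receptors, which sit on DNA mostly as pairs with a retinoid X receptor. On activated genes the receptor without hormone recruits corepressors, and hormone binding exchanges them for coactivators. Genes that fall with the hormone are known in many tissues, the pituitary thyrotropin genes being the classical case, and how the receptor lowers them is less well understood. GC-1, also named sobetirome, prefers the beta form of the receptor, the main form in liver. T3 is an iodinated amino acid with a pair of phenyl rings joined by oxygen. In GC-1 the iodines of the inner ring are replaced by methyls and that of the outer ring by isopropyl, the rings are joined by a methylene carbon, and the amino acid chain is replaced by an oxyacetic acid.

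HepG2 is an established human hepatoma cell line that keeps many hepatocyte functions. The cells were held in medium with serum depleted of thyroid hormone and received vehicle, 10 nM T3 or 10 nM GC-1 for 24 h, with 3 arrays per group and a total of 9. Nothing in the labels states whether the 3 samples of a group came from separate cultures, so p-values here reflect only the variation among these samples, part or all of which may be technical. Both ligand comparisons use the same 3 vehicle arrays. Values are RMA signals on a log2 scale, where a difference of 1 is a doubling. Array medians lay between 7.02 and 7.06. The interquartile range was 2.99 and 2.97 on T3 replicates 1 and 2 and 2.83 to 2.88 on the other 7 arrays. T3 differences of the 9 genes, and of other named genes whose T3 calls depended on those arrays, are therefore also given from T3 replicate 3 alone. A fit with 1 T3 array holds no spread among T3 samples, so differences without p-values are given from it. The interquartile range as a covariate is set mostly by the same 2 arrays, so it is no separate check of that fit. Of 10 hepatocyte marker genes 9 were measured, with a mean signal of 13.65 to 13.67 on the vehicle arrays and 13.76 to 13.82 on the ligand arrays. Of these, 1 was called, the fibrinogen gene FGB, higher by 0.69 with T3 and 0.65 with GC-1. At an unadjusted p under 0.05, 4 differed with T3 and 1 with GC-1. Markers of erythroid, intestinal, neuroendocrine and immune or stromal cells averaged 6.02 to 7.03 per array. Single genes spread widely around these averages, from SI at 3.75 to ACTA2 at 10.16 in vehicle. Of the 30 measured 0 were called in limma with either ligand (8 and 1 at an unadjusted p under 0.05 with T3 and GC-1, a level reached by 22.4% and 17% of all genes).

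The upstream sequences of 4 members are shown because among the 9 genes these had the largest falls with T3 (CEMIP and HS3ST3A1), the largest with GC-1 (TENT5A) and the largest excess of the GC-1 fall over the T3 fall (SLC26A3). Each is the 250 bases before the annotated transcript start, from RefSeq, build GRCh38.p14, written 5′ to 3′ along the gene's strand. Capitals mark matches on either strand to any of 4 motifs. GGGCGG is bound by SP family factors. The motif TATAAA helps to position the polymerase. The core sequence of thyroid hormone receptor sites is AGGTCA. The last motif, AGATAA, is bound by relatives of the blood and endoderm regulators that include GATA6. The windows are chr15:80779120-80779369 on the plus strand for CEMIP, chr17:13601930-13602179 on the minus strand for HS3ST3A1, chr6:81752682-81752931 on the minus strand for TENT5A and chr7:107803224-107803473 on the minus strand for SLC26A3.

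CEMIP: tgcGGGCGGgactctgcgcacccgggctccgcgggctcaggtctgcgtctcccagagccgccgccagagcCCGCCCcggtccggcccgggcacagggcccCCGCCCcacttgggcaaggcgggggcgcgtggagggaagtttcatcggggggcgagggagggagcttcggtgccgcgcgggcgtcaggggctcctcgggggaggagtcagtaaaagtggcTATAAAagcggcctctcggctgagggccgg

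HS3ST3A1: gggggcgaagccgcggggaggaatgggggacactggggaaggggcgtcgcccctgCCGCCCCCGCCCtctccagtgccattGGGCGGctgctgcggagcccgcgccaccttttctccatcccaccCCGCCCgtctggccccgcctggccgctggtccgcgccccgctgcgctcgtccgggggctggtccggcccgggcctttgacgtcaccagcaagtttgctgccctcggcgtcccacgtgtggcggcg

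TENT5A: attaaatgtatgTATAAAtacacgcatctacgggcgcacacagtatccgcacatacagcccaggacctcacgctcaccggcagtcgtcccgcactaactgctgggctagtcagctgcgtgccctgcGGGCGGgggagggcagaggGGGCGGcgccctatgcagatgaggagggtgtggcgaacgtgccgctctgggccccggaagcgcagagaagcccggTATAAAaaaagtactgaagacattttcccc

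SLC26A3: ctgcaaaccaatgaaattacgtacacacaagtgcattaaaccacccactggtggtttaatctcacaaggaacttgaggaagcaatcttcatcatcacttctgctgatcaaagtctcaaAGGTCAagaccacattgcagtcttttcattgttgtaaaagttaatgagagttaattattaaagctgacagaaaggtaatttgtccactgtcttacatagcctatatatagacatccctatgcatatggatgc

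The 4 windows differed in composition. G and C made up 74.4% of the CEMIP window, 76% for HS3ST3A1 and 59.6% for TENT5A, and 37.6% for SLC26A3, against a median of 58% over all 35116 windows in the table. CEMIP and TENT5A each had TATAAA at position -30 from the start, and TENT5A had another match at -238. SLC26A3 had AGGTCA at -132 and no match to the other motifs. Of the 9 genes 8 had windows, 11 in all. GGGCGG matched in 7 of the 11 (42.6% of all windows), TATAAA in 2 (10.7%), AGGTCA in 1 (12.1%) and AGATAA in 1, a PCYT1B window (9.17%). A direct repeat of AGGTCA with a 4-base spacer, the arrangement bound by the receptor pair, matched in 0 of the 11 and in 0.0142% of all windows. These are matches of letters in short windows and say nothing of binding.

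CEMIP and HS3ST3A1 act on the sugar chains around the cell. CEMIP binds hyaluronan and is needed for its breakdown. CEMIP signals were 9.55, 9.48 and 9.47 in vehicle, 8.55, 8.64 and 8.52 with T3 and 8.80, 8.93 and 8.79 with GC-1. The 3 groups did not overlap, with T3 lowest and GC-1 in between. The difference from vehicle was -0.93 with T3 and -0.66 with GC-1 (SE 0.06 each, n = 3 per group), which left 52.4% and 63.2% of the vehicle signal. The gene spans chr15:80779370-80951771 in GRCh38.p14.

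HS3ST3A1 adds a rare sulfate group to heparan sulfate, the chain that many growth factors and viruses bind. HS3ST3A1 signals were 7.19, 7.08 and 7.26 in vehicle, 6.31, 6.36 and 6.38 with T3 and 6.44, 6.69 and 6.80 with GC-1. T3 arrays were again lowest and GC-1 arrays in between without overlap, and the GC-1 arrays spread most (SD 0.18, against 0.04 for T3). The difference was -0.82 with T3 and -0.53 with GC-1 (SE 0.08), or 56.5% and 69.1% of vehicle. Its locus is chr17:13494032-13601929.

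CD24 is a heavily glycosylated surface protein held by a lipid anchor. It is a ligand of SIGLEC10 on macrophages and a marker of liver progenitor and tumour cells. In its brightest probe set CD24 signals were 10.81, 10.98 and 10.93 in vehicle, 10.29, 10.36 and 10.10 with T3 and 10.20, 10.23 and 10.26 with GC-1. Every ligand array lay below every vehicle array, and T3 and GC-1 arrays overlapped. The difference was -0.66 with T3 and -0.68 with GC-1 (SE 0.07), a fall to 63.4% and 62.6% of vehicle.

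CD24 had 6 probe sets, all of types that can bind several transcripts, so they share a target and are not independent readings. Their differences ran from -0.67 to -0.53 with T3 and from -0.68 to -0.50 with GC-1. In all 6 the ligand arrays lay below the vehicle arrays, although the vehicle means ran from 8.28 to 10.91. The least bright of them had the widest vehicle spread (SD 0.32, against 0.05 to 0.25 for the other 5). The gene lies at chr6:106969831-106976855.

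TENT5A belongs to a family of noncanonical poly(A) polymerases, enzymes that lengthen the tails of messenger RNAs, and is known from inherited bone fragility. TENT5A signals were 9.65, 9.60 and 9.75 in vehicle, 8.98, 9.00 and 8.82 with T3 and 8.91, 9.00 and 8.85 with GC-1. The ligand arrays overlapped each other and stood well clear of vehicle. The difference was -0.73 with T3 and -0.75 with GC-1 (SE 0.07), or 60.2% and 59.5% of vehicle. It lies at chr6:81745730-81752681.

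SCGN, or secretagogin, is a calcium-binding protein with EF-hand domains that is best known from neuroendocrine and pancreatic islet cells. SCGN signals were 9.67, 9.54 and 9.53 in vehicle, 8.95, 9.02 and 8.81 with T3 and 9.06, 9.16 and 9.06 with GC-1. The T3 arrays were lowest, and the lowest GC-1 array lay just above the highest T3 array. The difference was -0.66 with T3 and -0.49 with GC-1 (SE 0.07), or 63.5% and 71.3% of vehicle. Of 7 neuroendocrine markers 6 were measured, with array means of 6.02 to 6.12, and 4 of the 6 lay below the lower quartile of all probe sets. Single markers ran from INSM1 at 4.69 to ENO2 at 8.64 in vehicle. SCGN lies at chr6:25652215-25701783.

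PCYT1B and OSBPL10 work in membrane lipid metabolism. PCYT1B is the beta form of the enzyme that makes CDP-choline, the controlled step of phosphatidylcholine synthesis. In its brighter probe set PCYT1B signals were 6.15, 6.20 and 6.28 in vehicle, 5.72, 5.87 and 5.44 with T3 and 5.41, 5.46 and 5.78 with GC-1. Both ligand groups lay below vehicle and overlapped each other widely. The difference was -0.53 with T3 and -0.66 with GC-1 (SE 0.11), or 69.2% and 63.4% of vehicle. The second PCYT1B probe set, at 5.88 in vehicle, differed by -0.20 and -0.18 (SE 0.06), again with both ligand groups below vehicle. Both sets lay under the 30th percentile of all probe sets (a mean signal of 6.05), where RMA compresses differences. PCYT1B lies at chrX:24558087-24672887.

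OSBPL10 encodes an oxysterol-binding protein relative that carries lipids between membranes. In its brightest probe set OSBPL10 signals were 9.66, 9.57 and 9.57 in vehicle, 9.12, 9.15 and 8.98 with T3 and 9.15, 9.23 and 9.09 with GC-1. Ligand arrays of both kinds lay below vehicle and overlapped each other. The difference was -0.51 with T3 and -0.44 with GC-1 (SE 0.06), or 70.0% and 73.6% of vehicle. The other 2 OSBPL10 probe sets did not show this. One, at 7.52 in vehicle, differed by -0.04 and -0.03 (SE 0.08), and the other, at 5.96, by -0.06 and 0.03 (SE 0.06), and in both the groups overlapped. With the mean of the 3 sets the differences became -0.21 and -0.15. The gene spans chr3:31660825-32077692.

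SLC26A3 exchanges chloride for bicarbonate and is best known from the lining of the gut. In its brighter probe set SLC26A3 signals were 6.65, 6.27 and 6.59 in vehicle, 6.003, 6.325 and 5.988 with T3 and 5.82, 5.77 and 5.92 with GC-1. T3 replicate 2 lay above the lowest vehicle array, and the GC-1 arrays lay below all others. The difference was -0.40 with T3 and -0.67 with GC-1 (SE 0.11), or 75.9% and 63.1% of vehicle. Without T3 replicate 2 the T3 difference was -0.51. The second probe set, at 4.56 in vehicle, differed by 0.0033 and 0.05 (SE 0.06), and with the mean of both the differences became -0.20 and -0.31. Array means of the 8 intestinal markers lay between 6.55 and 6.71, with single genes in vehicle from SI at 3.75 to VIL1 at 9.89. The SLC26A3 locus is chr7:107765469-107803223.

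NFE2 is the large subunit of the transcription factor NF-E2, which pairs with small MAF proteins and is known from red cell and platelet precursors. NFE2 signals were 6.36, 6.24 and 6.50 in vehicle, 5.82, 6.06 and 5.87 with T3 and 5.85, 5.81 and 5.73 with GC-1. Neither ligand group overlapped vehicle, and the ligand groups overlapped each other. The difference was -0.45 with T3 and -0.57 with GC-1 (SE 0.08), or 73.2% and 67.6% of vehicle. Its mean over the 9 arrays lay just under the 30th percentile of all probe sets. Of 9 erythroid and megakaryocyte markers 7 were measured, at array means of 6.87 to 7.03. Single ones ran from KLF1 at 5.44 to EPOR at 9.43 in vehicle. The gene lies at chr12:54292111-54301015.

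**Figure D1:**
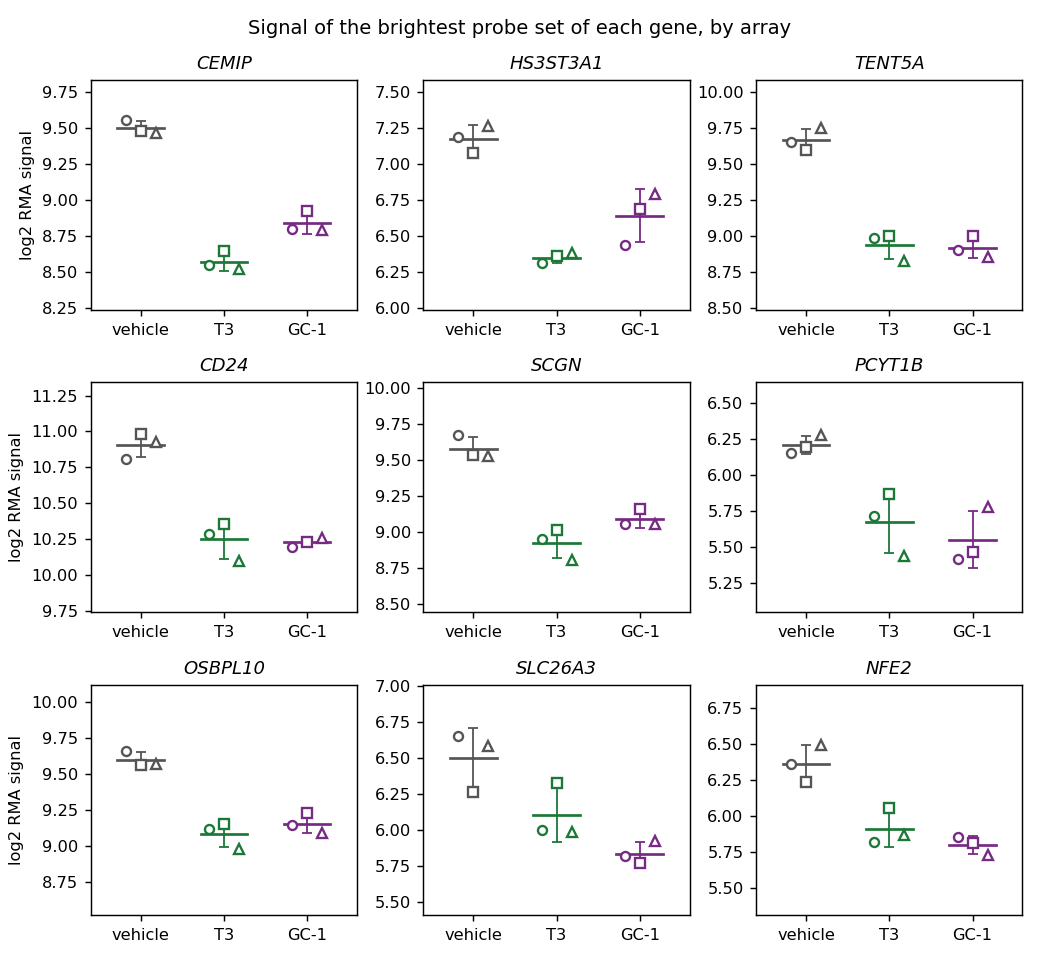
The log2 RMA signal (vertical axis) of the brightest probe set of each of the 9 genes is plotted for vehicle, T3 and GC-1, with 1 symbol per array (circle, square and triangle for replicates 1, 2 and 3), a line at the group mean and bars of 1 SD (n = 3). Ligand arrays lie below all vehicle arrays in every panel except SLC26A3, where T3 replicate 2 at 6.33 lies above the vehicle array at 6.27, and each panel has its own range of values.

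Over the brightest probe sets of the 9 genes the median difference was -0.66 with T3 and -0.66 with GC-1, where the medians over all 22215 probe sets were -0.015 and -0.0043. The signal left was 52.4% to 75.9% of vehicle with T3 and 59.5% to 73.6% with GC-1. In this bulk RNA, fewer cells that carry a transcript and less of the transcript in each cell cannot be told apart. With T3 replicate 3 as the lone T3 array the T3 differences ran from -0.98 (CEMIP) to -0.50 (NFE2). Those of TENT5A (-0.84), CD24 (-0.81), SCGN (-0.77), PCYT1B (-0.77) and OSBPL10 (-0.62) then moved by more than 1 SD between replicates, all toward a larger fall.

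A probe set was called lower when its adjusted p in limma, over all probe sets, was under 0.05. By that rule 13 of the 18 probe sets were called with T3, where 1.5% of all probe sets were, and 13 with GC-1, where 0.986% were. All T3 arrays lay below all vehicle arrays in 14 of the 18 (12.4% of all probe sets), and all GC-1 arrays in 15 (15.6%). Since these contrasts chose the genes, nothing is read from the counts. The probe sets called with neither ligand were the second set of PCYT1B, the second of SLC26A3 and the 2 dimmer sets of OSBPL10. SLC26A3's brighter set was not called with T3, and the dimmest CD24 set was not called with GC-1. A mean signal at or above the 30th percentile was reached by 13 of the 18, and by 7 of the 9 brightest sets.

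The cut between members and other genes was narrow. OSBPL10 held rank 10 with T3 at -0.51, and PLA2G2A, a secreted phospholipase, was next at -0.51, followed by NECTIN3, an adhesion protein, at -0.50. SCGN held rank 10 with GC-1 at -0.49, and CHRNA5, a nicotinic receptor subunit, followed at -0.48 and TIPIN, a replication fork protein, at -0.47. OSBPL10 held rank 15 with GC-1 and NFE2 rank 17 with T3. The glucose transporter gene SLC2A1 (-0.90 with T3 and -0.76 with GC-1), the transcription factor GATA6 (-0.73 and -0.68) and, with T3, the protease inhibitor SERPINE2 (-0.52) also stood among the 10 and are not among the 9 genes described here.

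**Figure D2:**
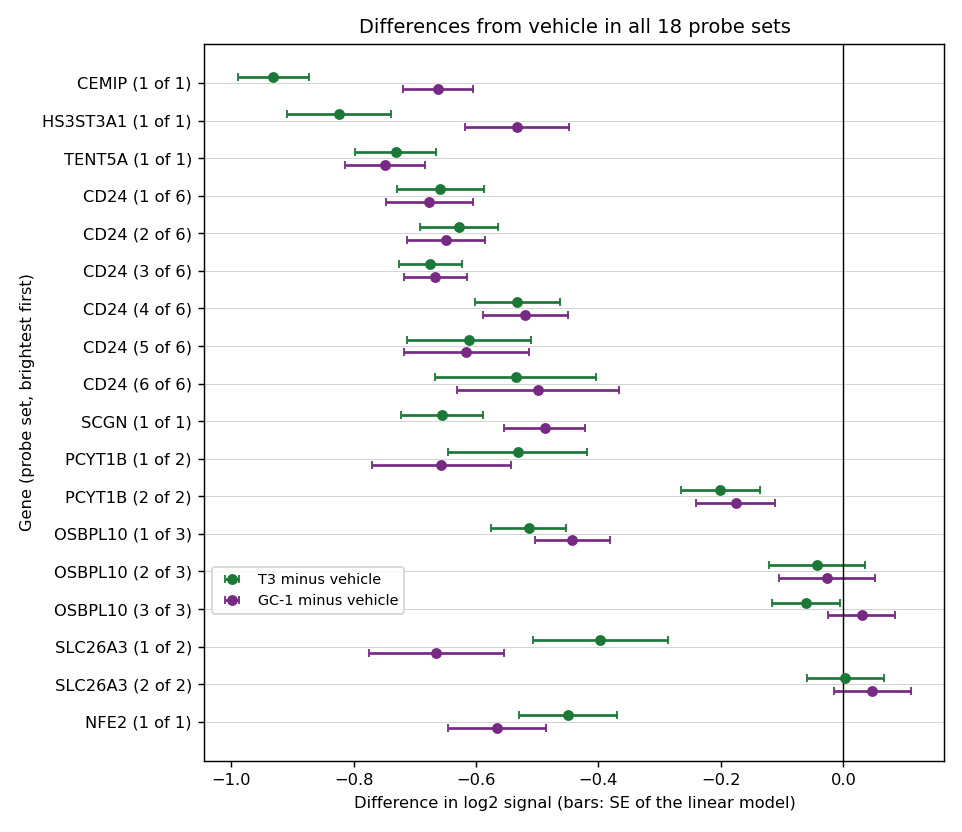
Differences from vehicle in log2 signal (horizontal axis) are plotted for all 18 probe sets, T3 in green and GC-1 in purple, with bars of 1 SE of the linear model. Most sets lie between -0.93 and -0.40, the second PCYT1B set lies near -0.20, and the dimmer sets of OSBPL10 and SLC26A3 lie near 0.

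The direct comparison of GC-1 with T3, at the same dose and time, asks where the ligands differ on genes that both lower. This is 1 pair of compounds, and it was tested on the 12 probe sets of the 6 genes that stood in both lists of 10. Choosing genes with a large fall under each ligand favours genes whose 2 falls are alike, so sizes and intervals here describe these genes only. None of the 12 was called in limma (0% of all probe sets were), while 3 had an unadjusted p under 0.05, as did 14.1% of all probe sets. CEMIP was higher with GC-1 than with T3 by 0.27 (95% interval 0.14 to 0.40, adjusted p = 0.176). HS3ST3A1 was higher by 0.29 (0.10 to 0.48, adjusted p = 0.224), and SCGN by 0.17 (0.02 to 0.31, adjusted p = 0.312). In these 3 genes each GC-1 array lay above each T3 array, an order found in 7.9% of all probe sets.

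The remaining 3 genes had differences on both sides of 0. TENT5A differed by -0.02 (interval -0.16 to 0.13, adjusted p = 0.93). The brightest CD24 set differed by -0.02 (-0.17 to 0.14, adjusted p = 0.93), and the 6 CD24 sets by -0.02 to 0.04 with adjusted p of 0.908 to 0.989. The PCYT1B sets differed by -0.12 (-0.37 to 0.12, adjusted p = 0.643) and 0.03 (-0.12 to 0.17, adjusted p = 0.89). A p above the threshold is no evidence of equal action. All 12 intervals lay within 1.5-fold in either direction, 6 of them from CD24 sets that share a target. The choice had already limited these genes to those that fell strongly with both ligands. With the interquartile range of the array as a covariate 9 of the 12 intervals lay within 1.5-fold.

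OSBPL10, SLC26A3 and NFE2 were chosen on 1 ligand, which bears on this difference, and their values are given without a test. GC-1 minus T3 was 0.07 (SE 0.06) in the brightest OSBPL10 set, -0.27 (SE 0.11) in the brighter SLC26A3 set and -0.12 (SE 0.08) in NFE2. Of the 9 genes 4 had the larger fall with T3 (CEMIP, HS3ST3A1, SCGN and OSBPL10) and 5 with GC-1. The choice bears on this count, since OSBPL10 was chosen on T3 and SLC26A3 and NFE2 on GC-1. TENT5A and CD24, counted for GC-1, differed by only -0.02 each and changed sign under some settings.

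**Figure D3:**
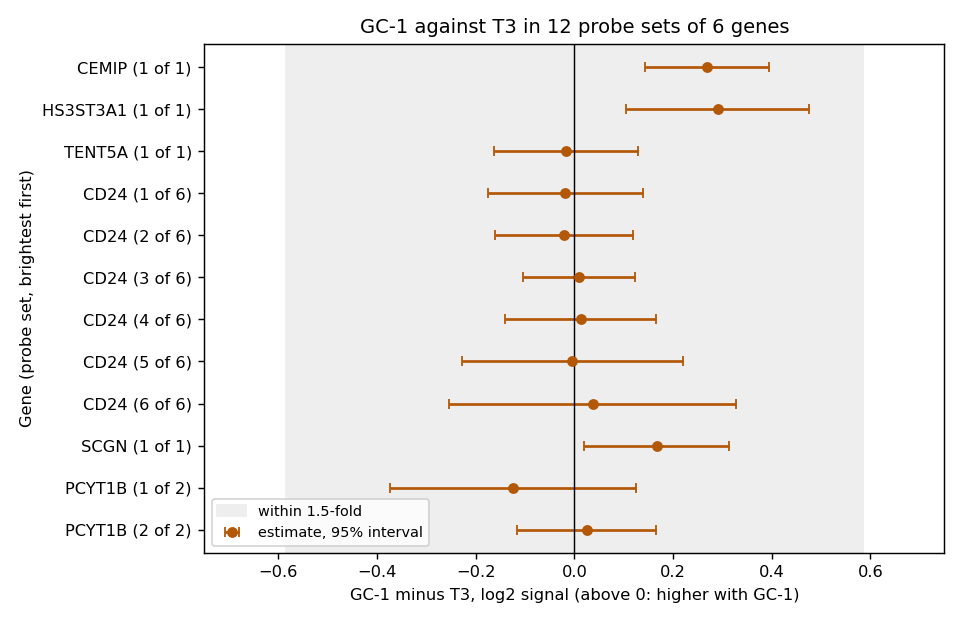
GC-1 minus T3 in log2 signal (horizontal axis) is plotted for the 12 probe sets of the 6 genes in both lists, with 95% intervals from the linear model and a grey band that marks 1.5-fold in either direction. All 12 intervals lie inside the band, and those of CEMIP, HS3ST3A1 and SCGN lie to the right of 0.

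The question of whether genes that work beside the 9 moved with them was asked of 9 lists of related genes, with 145 of 183 genes measured. A gene was its brightest probe set, and called genes had an adjusted p under 0.05 in limma. With T3 11 of the 145 rose, or 7.59%, and 7 fell, or 4.83%, where 4.51% and 1.71% of all genes did. With GC-1 3 rose and 2 fell, where 2.1% and 1.16% of all genes did. The median over the 145 was -0.009 with T3 and 0.01 with GC-1, against -0.017 and -0.005 over all genes. An unadjusted p under 0.05 was reached by 11.4% of all genes for higher and 11.1% for lower signal with T3, and by 7.49% and 9.49% with GC-1. The unadjusted counts given for lists without calls stand against these shares. The lowest difference among the 145 was that of HPSE, at -0.44 with T3.

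Around CEMIP, 3 of 22 measured genes of hyaluronan turnover and binding rose with T3 and none fell, and 1 rose with GC-1. ITIH1, a heavy chain that becomes linked to hyaluronan, rose by 0.43 with T3 (SE 0.05, adjusted p = 0.000378) and 0.30 with GC-1 (adjusted p = 0.00675). ITIH3, another heavy chain, rose by 0.37 with T3 (SE 0.06, adjusted p = 0.00346), with a GC-1 difference of 0.16 (adjusted p = 0.198, or 0.0489 with trend and robust eBayes). UGP2, which makes UDP-glucose, was called with T3 at 0.19 (adjusted p = 0.0451), and without any one of the 9 arrays it was not (adjusted p up to 0.164). With T3 replicate 3 as the lone T3 array its T3 difference was 0.20. Its GC-1 difference was 0.14 (adjusted p = 0.171, or 0.0109 with trend and robust eBayes). CEMIP2, a cell-surface hyaluronidase, had -0.085 with T3 (adjusted p = 0.454) and -0.04 with GC-1 (adjusted p = 0.795). The hyaluronan receptor CD44, at a dim 6.04 in vehicle in the brightest of its 8 probe sets, had -0.04 and 0.02 (adjusted p = 0.782 and 0.922). The synthase HAS2, at 4.64 in vehicle, had 0.0023 and -0.02 (adjusted p = 0.988 and 0.919). The hyaluronidase HYAL2, named after its values were seen, had 0.20 and 0.19 (adjusted p = 0.0937 and 0.15). HAS3 was not analysed here. The list's median was -0.0082 with T3 and 0.06 with GC-1.

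Around HS3ST3A1, 30 of 41 genes of heparan sulfate synthesis and its core proteins were measured. PAPSS1, which makes the sulfate donor used by all sulfotransferases, fell with both ligands, by 0.27 with T3 (SE 0.05, adjusted p = 0.00824) and 0.27 with GC-1 (adjusted p = 0.0132). Without vehicle replicate 1 or 2 or GC-1 replicate 2 or 3 the GC-1 call was lost (adjusted p up to 0.0728). HPSE, the enzyme that cuts heparan sulfate, fell by 0.44 with T3 (SE 0.07, adjusted p = 0.00279) from a dim 5.73, with -0.23 for GC-1 (adjusted p = 0.104). With array weights the GC-1 difference of HPSE was called (-0.25, adjusted p = 0.0335). GLCE, an epimerase of the chain, rose by 0.40 with T3 (SE 0.08, adjusted p = 0.0158). That call was lost without vehicle replicate 2 or 3 or T3 replicate 1 (adjusted p up to 0.0731). With T3 replicate 3 as the lone T3 array the T3 difference of GLCE was 0.20. Its GC-1 difference of 0.29 (adjusted p = 0.101) was called without T3 replicate 3 (adjusted p = 0.0152). With the interquartile range as a covariate the GLCE difference was 0.18 with T3 (adjusted p = 0.141) and 0.38 with GC-1 (adjusted p = 0.0047). The GC-1 difference of GLCE was also called with trend and robust eBayes (adjusted p = 0.0428) and with array weights (0.0151). The sister enzymes HS3ST3B1 and HS3ST1 had differences of 0.05 and -0.02 with T3 (adjusted p = 0.725 and 0.905) and 0.06 and -0.04 with GC-1 (adjusted p = 0.728 and 0.819). The medians were 0.02 and 0.04.

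Around CD24, 16 of 17 progenitor and tumour surface genes were measured. KRT19, a keratin of bile duct and progenitor cells, was called lower with both ligands, at -0.25 with T3 (SE 0.06, adjusted p = 0.0425) and -0.28 with GC-1 (adjusted p = 0.041). Its T3 call was lost when any one array other than vehicle replicate 1 or T3 replicate 2 was left out (adjusted p up to 0.149). With T3 replicate 3 as the lone T3 array its T3 difference was -0.32. Its GC-1 call was lost without vehicle replicate 2 or 3, T3 replicate 1 or any GC-1 array (adjusted p up to 0.17). CDH1, the adhesion protein E-cadherin, rose by 0.63 with T3 (SE 0.12, adjusted p = 0.0104), with 0.29 for GC-1 (adjusted p = 0.265). Without vehicle replicate 1 the T3 call was lost (adjusted p = 0.0524). With T3 replicate 3 as the lone T3 array the T3 difference of CDH1 was 0.32. With the interquartile range of the array as a covariate the CDH1 difference was 0.30 with T3 (adjusted p = 0.11) and 0.42 with GC-1 (adjusted p = 0.0252). ICAM1, an adhesion receptor for leukocytes, was called with T3 at 0.25 (adjusted p = 0.027). The call was lost without vehicle replicate 1 or 2 or T3 replicate 1 or 2 (adjusted p up to 0.107). With T3 replicate 3 as the lone T3 array the T3 difference of ICAM1 was 0.23. EPCAM, an epithelial surface protein at 11.84 in vehicle, had -0.11 and -0.10 (adjusted p = 0.244 and 0.361). The list's medians were -0.09 and 0.003.

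Around SCGN, 15 of 19 EF-hand calcium proteins were measured, and 3 were called lower with T3 and none in either direction with GC-1 (4 at an unadjusted p under 0.05, all lower). S100A4 stood at -0.25 (adjusted p = 0.0383), S100A11 at -0.29 (adjusted p = 0.0444) and the neuronal sensor NCS1 at -0.27 (adjusted p = 0.0297). With GC-1 the same genes stood at -0.17, -0.18 and -0.13 (adjusted p = 0.191, 0.262 and 0.355). Each of the 3 calls was lost without vehicle replicate 1, vehicle replicate 3 or T3 replicate 1. That of S100A4 was also lost without vehicle replicate 2, T3 replicate 3 or GC-1 replicate 2 (adjusted p up to 0.122), that of S100A11 without any array but T3 replicate 2 (up to 0.153), and that of NCS1 without T3 replicate 2 (up to 0.107). With T3 replicate 3 as the lone T3 array the T3 differences of S100A4, S100A11 and NCS1 were -0.23, -0.48 and -0.23. With GC-1, S100A10, named after its values were seen, was called lower with trend and robust eBayes (-0.18, adjusted p = 0.0146) and with array weights (-0.17, adjusted p = 0.0493). CALB2, or calretinin, had -0.14 and -0.01 (adjusted p = 0.146 and 0.942). The medians were -0.08 and -0.01.

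Around PCYT1B, 21 of 25 genes of phosphatidylcholine and phosphatidylethanolamine synthesis were measured, and 3 rose with T3 and 1 with GC-1. LPIN2, a phosphatidate phosphatase, rose by 0.32 with T3 (SE 0.06, adjusted p = 0.00665). Its GC-1 call, at 0.245 (adjusted p = 0.0454), was lost without any vehicle or GC-1 array and without T3 replicate 1 or 2 (adjusted p up to 0.184). LPCAT1, which reacylates phosphatidylcholine, rose by 0.32 with T3 (SE 0.05, adjusted p = 0.00179), with 0.13 for GC-1 (adjusted p = 0.195). PEMT, the liver enzyme that methylates phosphatidylethanolamine to phosphatidylcholine, was called with T3 at 0.25 (adjusted p = 0.0387) and lost the call when any one array other than vehicle replicate 2 or T3 replicate 2 was left out (adjusted p up to 0.148). The alpha form of the enzyme itself, PCYT1A, had -0.05 with each ligand (adjusted p = 0.627 and 0.738). PCYT2, which acts on ethanolamine, had -0.06 and -0.14 (adjusted p = 0.578 and 0.203). The medians were -0.03 and -0.02.

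Around OSBPL10, 15 of 17 oxysterol-binding proteins and their membrane anchors were measured, and 0 were called with either ligand in limma, with 3 and 2 higher and 0 lower at an unadjusted p under 0.05 with T3 and GC-1. OSBP, the founding member, had 0.16 with each ligand (adjusted p = 0.0786 and 0.117), and its T3 difference was called without dim probe sets (0.0402) and with trend and robust eBayes (0.0387). OSBPL3 had -0.21 and -0.23 (adjusted p = 0.31 and 0.325), and OSBPL11, a near relative, -0.13 and -0.15 (adjusted p = 0.552 and 0.573). The T3 values depended on the arrays kept. With T3 replicate 3 as the lone T3 array the T3 differences of OSBPL3, OSBPL8 and OSBPL11 were -0.505, -0.44 and -0.41. With the interquartile range as a covariate these genes were called lower, at -0.50, -0.46 and -0.42. That covariate is set mostly by T3 replicates 1 and 2, so it nearly repeats the fit without them and is no separate support. Without T3 replicate 3, OSBPL2 and PI4KA were called higher instead, at 0.225 and 0.21 (adjusted p = 0.0296 and 0.0379). OSBPL8, OSBPL2 and PI4KA were named after their values were seen. The medians were 0.05 and -0.0027.

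Around SLC26A3, 12 of 20 exchangers and partners were measured, and 0 were called. At an unadjusted p under 0.05, 1 was higher and 3 lower with T3 and 1 lower with GC-1. The sulfate transporter SLC26A2 had -0.23 with T3 (adjusted p = 0.172) and -0.35 with GC-1 (adjusted p = 0.0713). With T3 replicate 3 as the lone T3 array SLC26A2 had -0.50 with T3 and -0.35 with GC-1. Under the interquartile range covariate, which for T3 nearly repeats that fit, SLC26A2 was called with both ligands (-0.50 and -0.25). Its GC-1 difference was also called without T3 replicate 3 (adjusted p = 0.0012), without dim probe sets (0.0453) and with trend and robust eBayes (0.0169). So it was with array weights (0.00576) and in the fit of 2 groups (0.00296). The chloride channel ANO1, at 4.07 in vehicle, had -0.15 and -0.10 (adjusted p = 0.0999 and 0.332). SLC26A6 was not analysed here. The medians were -0.02 and 0.04.

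Around NFE2, 8 of 9 family members, small MAF proteins and BACH factors were measured. MAFF, a small MAF partner, rose by 0.35 with T3 (SE 0.05, adjusted p = 0.00239) and 0.24 with GC-1 (adjusted p = 0.0288). The GC-1 call was lost without vehicle replicate 2 or 3 or any GC-1 array (adjusted p up to 0.139). NFE2L3, a relative of NFE2, fell by 0.44 with T3 (SE 0.07, adjusted p = 0.00275), with -0.22 for GC-1 (adjusted p = 0.119). NFE2L1, which controls proteasome genes, rose by 0.30 with T3 (SE 0.06, adjusted p = 0.019), a call lost without vehicle replicate 2 or 3 (adjusted p up to 0.0785). Its GC-1 difference was 0.21 (adjusted p = 0.12). That difference was called without T3 replicate 3 (0.0407), with trend and robust eBayes (0.02) and with array weights (0.0449). NFE2L2, the oxidative stress factor NRF2, had -0.00033 and 0.03 (adjusted p = 0.998 and 0.818), and MAFG had 0.02 with each (adjusted p = 0.907 and 0.932). The medians were 0.008 and 0.02.

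The remaining list, TENT5 with other noncanonical and canonical poly(A) polymerases, had 8 of 12 genes measured and 0 called. At an unadjusted p under 0.05, 1 was higher and 1 lower with T3 and 0 with GC-1. TENT5C, the relative of TENT5A known from myeloma, had -0.145 and -0.08 (adjusted p = 0.203 and 0.598) at a vehicle signal of 5.87. TUT4, a uridylyl transferase, had 0.11 and 0.10 (adjusted p = 0.218 and 0.328). PAPOLA, named after its values were seen, was called lower with T3 under the interquartile range covariate (-0.21, adjusted p = 0.0468). The medians were 0.0058 and -0.05. T3 and GC-1 were not tested against each other by list.

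**Figure D4:**
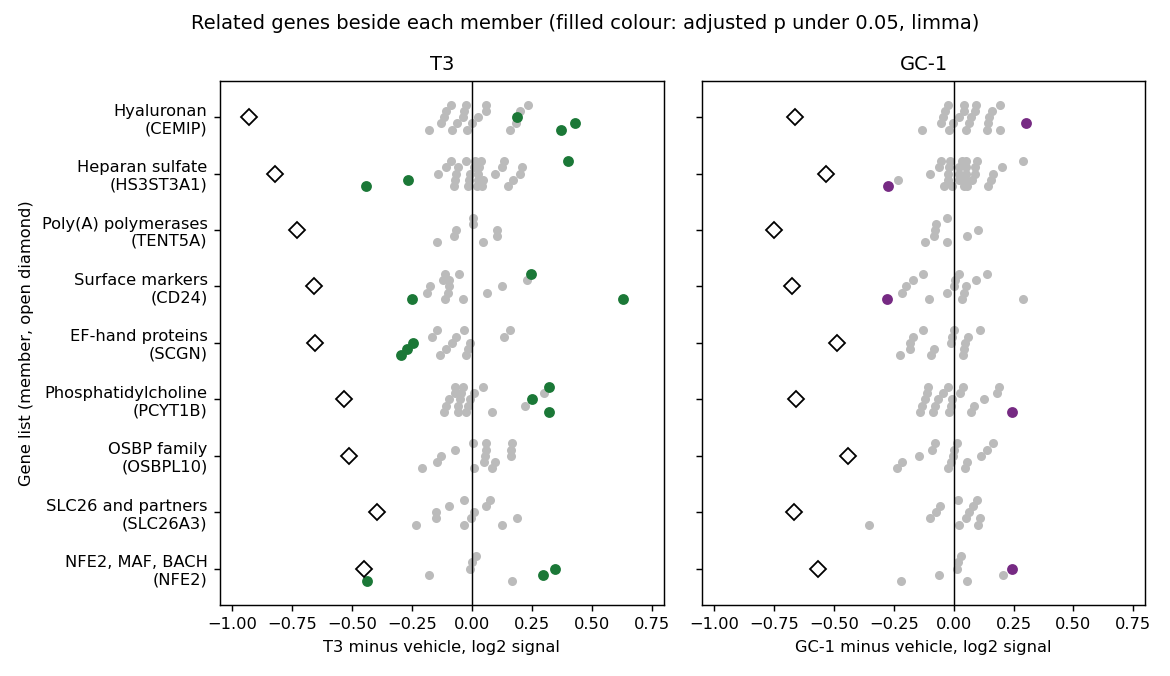
Each row is a list of related genes, with the difference from vehicle in log2 signal on the horizontal axis (T3 left, GC-1 right). Grey points are genes not called, coloured points genes with an adjusted p under 0.05 in limma, and the open diamond is the member the list belongs to. The diamond lies to the left of every gene of its list in both panels, NFE2 with T3 only narrowly (-0.45, against -0.44 for NFE2L3). Members were chosen for their large falls, which all but sets this order, and nothing is read from it.

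Among all genes, those with the pattern most like each of the 9 were found by Pearson's r over the 9 arrays, a measure set mostly by the distance between vehicle and ligand arrays and given with no test. SCGN was most like OSBPL10 and CEMIP (r = 0.99 each), and CEMIP in turn was most like SCGN and SPRING1 (0.99 and 0.98). HS3ST3A1 was most like SPRING1 and TSPAN8 (0.97 each), TENT5A like TMSB10 and DCTPP1 (0.99 and 0.98), and CD24 like BAMBI and SUOX (0.99 each). OSBPL10 was most like SCGN and SLC1A4 (0.99 and 0.98), and PCYT1B like KHDRBS3 and EXOSC9 (0.98 each). For SLC26A3 the closest were TCOF1 and CRYBG1 (0.95 and 0.94), and for NFE2 GCFC2 and POLR3C (0.97 each).

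These neighbours mostly had smaller differences than the member they resembled, which the choice of members for large falls all but sets. BAMBI had -0.35 with T3 and -0.38 with GC-1, TSPAN8 -0.41 and -0.31, and TMSB10, at 13.07 in vehicle, -0.23 and -0.24. CEMIP, SCGN and OSBPL10 also shared the order of arrays within groups, which their high r over the same arrays already includes. In all 3 genes vehicle replicate 1 was the highest of its group, and replicate 2 was the highest and replicate 3 the lowest of both the T3 and the GC-1 arrays. TENT5A had the same order of T3 arrays and of GC-1 arrays, and CD24, PCYT1B and SLC26A3 had the same order of T3 arrays. T3 replicate 3 was the lowest T3 array in 7 of the 9 genes, and T3 replicate 1 was in HS3ST3A1 and NFE2. How often these orders occur over all genes was not counted.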

How the data were processed

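Messenger RNA was measured on 9 Affymetrix arrays, grouped by the sample titles. The authors deposited log2 signals for each probe set and array. Per the submitters' processing notes these are RMA values, with no version given. That the logarithm is to base 2 was concluded from the range of the signals, 3.15 to 14.58. Scanner files were not used, so no probe set could be called absent. Of the probe sets 62 controls were left out. The platform annotation gave 1 symbol for 19064 of the 22215 others, several for 1043 and none for 2108, and 19052 of the 1-symbol sets matched the RefSeq gene table by Entrez identifier. For each gene the brightest probe set, by the mean of the 9 arrays, stood for the gene. The 2 dimmer OSBPL10 sets derive from 1 sequence record, another than the brightest set's, per the annotation.

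Differences were fitted in R 4.3.3 by the lmFit and eBayes functions of limma 3.58.1, as 1 two-sided model of the 3 group means, with Benjamini-Hochberg adjustment over the 22215 probe sets of a contrast. The script was tested on simulated data. With 3 arrays per group the precision is limited. The 9 genes, the lists of related genes and markers, and the tests were chosen with earlier results of these data known. Beside the 9 genes, named genes are those called in a list, up to 2 of a list with the smallest p for the mean of both ligands where fewer than 2 were called, close relatives, the 2 most alike genes per member, and genes beside the rank limit of 10. Alternatives were other normalization and centring, the filter on dim probe sets, eBayes options, array weights, fits of 2 groups, the interquartile range as covariate, the replicate block, probe set means, leaving out each array, and, chosen after seeing the data, leaving out T3 replicates 1 and 2. Motifs were searched as exact letters on both strands.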

Additional observations from a re-analysis of the deposited data

How the results depend on the processing

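Over 19 alternative settings the 9 genes stayed below vehicle with both ligands wherever they were fitted (the filter on dim probe sets leaves out PCYT1B and NFE2), 11 to 14 of their 18 probe sets were called lower with T3 and 11 to 14 with GC-1, and 0 of the 12 tested were called between GC-1 and T3 (the lowest adjusted p among the brightest sets was 0.0604, for CEMIP). The count of intervals within 1.5-fold was 10 of the 10 sets left by the filter on dim probe sets and 9 with the interquartile range covariate. GC-1 minus T3 differences near 0 changed sign: TENT5A to 0.0346 and CD24 to 0.0351 after quantile normalization, TENT5A to 0.13, CD24 to 0.20 and PCYT1B to 0.22 with the covariate, CD24 to 0.0023 as the mean of its probe sets, and TENT5A to 0.10, CD24 to 0.13 and PCYT1B to 0.11 without T3 replicates 1 and 2; none of these was called, and the cause was not tested. Leaving out each array in turn gave -0.0737 to 0.0153 for TENT5A and -0.0927 to 0.0358 for CD24, and -0.24 to -0.03 for PCYT1B and 0.11 to 0.21 for SCGN, lowest for SCGN and PCYT1B without T3 replicate 3 and highest for PCYT1B without T3 replicate 2. With the covariate SCGN was 0.33, and without T3 replicates 1 and 2 it was 0.28.

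Counts over the related genes moved more, and the cause was not tested. Those that rose with T3 (11) numbered 17 with the filter on dim probe sets, 22 with trend and robust eBayes and 7 to 13 when 1 array was left out. Those that fell with T3 (7) numbered 4 in the fit of 2 groups, 16 with the covariate, and 3 to 6 when 1 array was left out. Those that rose with GC-1 (3) numbered 9 with trend and robust eBayes, 7 with array weights and 1 to 5 when 1 array was left out. Those that fell with GC-1 (2) numbered 1 after quantile normalization, 4 with trend and robust eBayes, 5 with array weights and 0 to 4 when 1 array was left out. Of the 18 T3 calls 8 held in every setting that tested them, and of the 5 GC-1 calls 1 did. Same-numbered samples did not deviate together (9 correlations of -0.26 to 0.08), while differently numbered samples gave -0.30 to 0.29. With 3 arrays per group such correlations cannot exclude a shared culture or batch, so whether the numbers pair samples stays unknown. With the replicate block 12 and 13 member probe sets were called lower with T3 and GC-1. In that fit 8 related genes rose and 3 fell with T3, and 1 rose and 1 fell with GC-1.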
